A study of Mus musculus with 14 samples.

Results

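Wnt6, Lrp6, Gsk3b, Apc, Axin2, Ctnnb1 and Tcf7l1 are 7 genes of the canonical Wnt pathway, found by symbol among 36335 named genes in the tables of total and T>C conversion counts. They were proposed with results of these libraries in view, and Wnt6 was chosen by its low total RNA in the Mettl3-KO libraries, the others as parts of its pathway. Their difference between genotypes in total RNA, and in labelled RNA at the start of the chase, is therefore given as a description with no test. What was tested for them is the course of total RNA over the chase and the loss of label, which played no part in the choice.

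The libraries came from E14 cells, a mouse embryonic stem cell line, either WT or Mettl3-KO. The cell line label is E14 for every sample, but the source label of the 2 Mettl3-KO libraries at 8 h reads E15 and E16, a disagreement the sources used here do not settle. Mettl3 is the catalytic subunit of the enzyme that writes m6A on mRNA. Cells of every group had been kept on gelatin in FBS/LIF medium with 200 nM INK128, an mTOR kinase inhibitor, for 2 weeks, which puts such cells into a paused state. All then received 100 µM S4U, a uridine analog that enters new RNA, for 12 h, followed by medium without it, and were collected 0, 1, 3 or 8 h later. No group lacked INK128 or S4U, so the values describe paused, labelled cells. There were 2 libraries for each genotype and time, except that WT had only 1 at 0 h and 1 at 3 h. How the knockout was made, and whether it is 1 clone, is not given in the sources used here.

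In the canonical Wnt pathway a secreted ligand binds a Frizzled receptor together with the co-receptor Lrp5 or Lrp6. Without a ligand, a destruction complex of Axin, Apc, the kinase Gsk3b and casein kinase 1 marks beta-catenin, the product of Ctnnb1, for degradation. With a ligand, beta-catenin builds up and joins TCF/LEF factors on DNA, where Axin2 is a widely used target and feeds back on the pathway. In mouse embryonic stem cells the pathway supports self-renewal, and Tcf7l1 is the TCF factor best known there as a repressor of pluripotency genes.

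In 12 libraries total counts were between 6108102 and 26654217. WT 1 h replicate 2 (49154 counts) and Mettl3-KO 3 h replicate 2 (602297) were far shallower, stood apart in labelled share too (8.43% and 6.90%), and are called shallow below. The 12 others are called deep, and levels are given as CPM, the count scaled by library total, over them unless said otherwise. Mettl3 was at 44.4 CPM ± 20.4 (SD, n = 5) in deep WT and at 1.67 ± 0.44 (SD, n = 7) in deep Mettl3-KO libraries, with no overlap. The Y-linked gene Uty was at 0 to 0.16 CPM in deep WT libraries and at 4.69 to 25.6 in deep Mettl3-KO libraries, so the lines also differed outside Mettl3. Embryonic stem cell markers were present in both lines: 10 markers summed to 4720 to 6040 CPM in WT and 3800 to 5680 in Mettl3-KO, none at 0. In bulk RNA, fewer cells of a type and less RNA per cell cannot be told apart.

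Wnt6, the ligand, was the member with the largest difference between genotypes. In deep WT libraries its total RNA stood at 35.8 CPM when the chase began, 37.5 after 1 h, 35.6 after 3 h, and 45.2 and 47.7 after 8 h. In deep Mettl3-KO libraries it stood at 1.38 and 2.49 CPM when the chase began, 1.01 and 1.69 after 1 h, 1.33 after 3 h, and 1.41 and 0.869 after 8 h. Every deep WT library thus lay above every deep Mettl3-KO library at all 4 times. The means were 40.3 CPM ± 5.69 (SD, n = 5) and 1.45 ± 0.53 (SD, n = 7), and the fitted log2 difference, Mettl3-KO minus WT, was -4.74 (SE 0.37) over 14 libraries and -4.86 (SE 0.26) over the deep ones. The raw evidence in deep libraries was 2347 Wnt6 counts in WT and 191 in Mettl3-KO. WT 1 h replicate 2 held 0 Wnt6 counts, which at its depth allows up to 60.9 CPM (3 counts), so it does not bear on the level, and Mettl3-KO 3 h replicate 2 held 1 count.

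**Figure D1:**
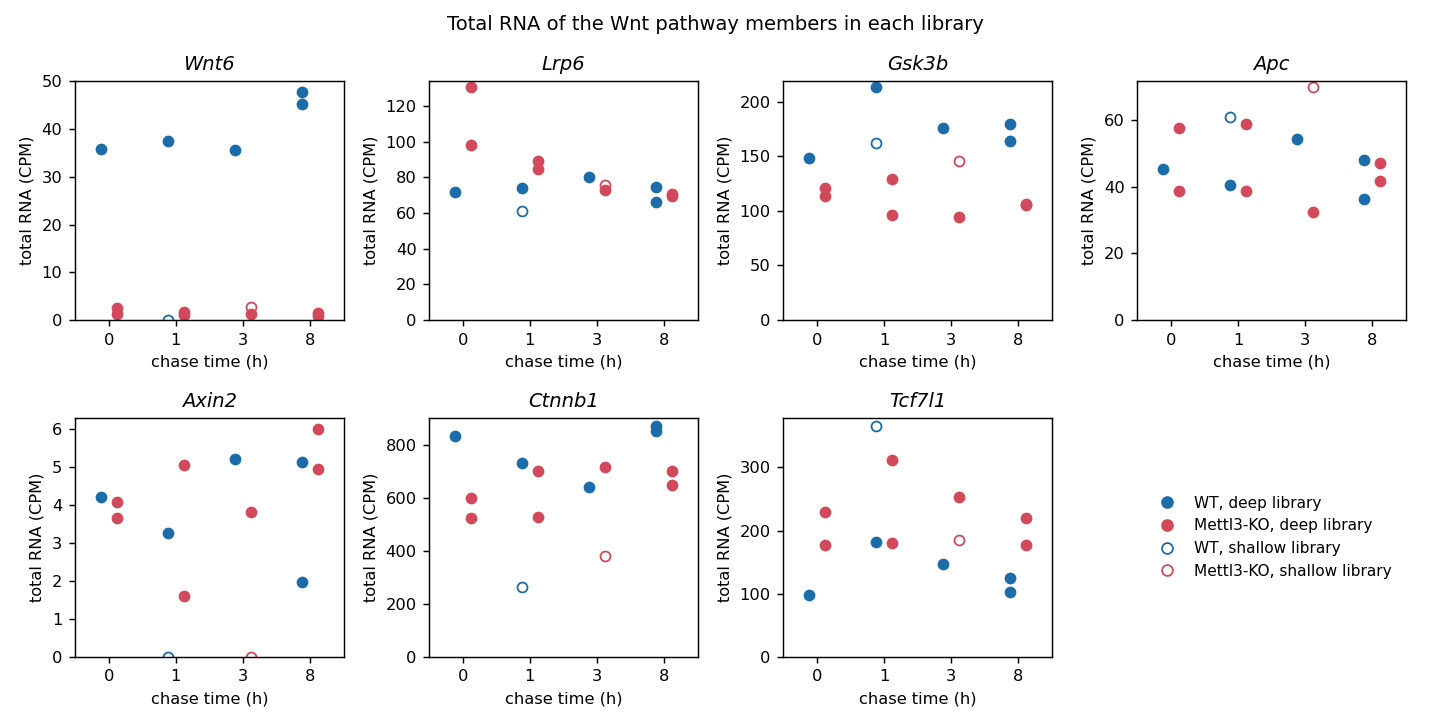
Total RNA in CPM (linear axes from 0, a scale of its own for each gene) against chase time in hours for the 7 genes; each point is 1 library, filled where deep and open where shallow. Deep WT libraries (blue) lie at 35.6 to 47.7 CPM for Wnt6 and deep Mettl3-KO libraries (red) at 0.869 to 2.49, whereas the colours overlap for Lrp6, Apc, Axin2, Ctnnb1 and Tcf7l1.

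Wnt6 lies on chromosome 1 (74754342 to 74785322, RefSeq, GRCm38.p6). Wnt10a, another Wnt ligand, is 6697 bases away (chromosome 1, 74792019 to 74804176) and fell in Mettl3-KO, by 3.42 on the log2 scale (SE 0.62, edgeR adjusted p = 0.00148). Its levels in deep libraries were 1.56 to 5.79 CPM in WT and 0 to 0.793 in Mettl3-KO, which do not overlap. Ttll4, the nearest gene on the other side with enough counts to be tested, gave a log2 difference of 0.40 (SE 0.30, edgeR adjusted p = 0.385). The lncRNA Gm29539 (74774943 to 74778871) overlaps Wnt6 in RefSeq, but not the 3′ end of Wnt6 at 74785322, and the libraries were 3′ end libraries. The strand used in counting is not given in the sources used here. Whether any reads of Gm29539 were counted for Wnt6 was not tested.

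The bases before the transcript start in RefSeq's promoter table are shown for the 3 members with the largest genotype difference, and for Sp5, a direct Wnt target described below, because they are where a TCF/LEF core would lie in a compact promoter. Capitals mark the 6-letter strings CTTTGT and CTTTGA or their reverse complements ACAAAG and TCAAAG, and the sequences are RefSeq's on GRCm38.p6, 5′ to 3′ on the gene's own strand. They cover chr1:74771642-74771891 (Wnt6, plus strand), chr16:38088751-38089000 (Gsk3b, plus), chr6:72789046-72789295 (Tcf7l1, minus) and chr2:70474673-70474922 (Sp5, plus). The Wnt6 start lies inside the span of the gene given above, so these bases precede an internal transcript start and not the gene's first base.
Wnt6: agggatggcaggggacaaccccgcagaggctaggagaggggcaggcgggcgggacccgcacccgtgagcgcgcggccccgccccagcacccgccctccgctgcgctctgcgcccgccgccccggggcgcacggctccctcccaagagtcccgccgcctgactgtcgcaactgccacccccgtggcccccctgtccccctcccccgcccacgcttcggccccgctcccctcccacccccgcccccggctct
Gsk3b: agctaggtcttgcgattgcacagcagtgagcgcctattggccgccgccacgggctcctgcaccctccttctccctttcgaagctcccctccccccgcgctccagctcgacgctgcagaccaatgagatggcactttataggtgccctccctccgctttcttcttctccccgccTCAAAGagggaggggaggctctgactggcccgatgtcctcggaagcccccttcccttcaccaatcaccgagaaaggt
Tcf7l1: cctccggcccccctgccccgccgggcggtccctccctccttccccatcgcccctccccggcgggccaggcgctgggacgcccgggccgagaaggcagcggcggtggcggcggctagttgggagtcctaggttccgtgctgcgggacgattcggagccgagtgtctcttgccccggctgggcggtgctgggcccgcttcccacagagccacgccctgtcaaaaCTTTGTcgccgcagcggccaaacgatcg
Sp5: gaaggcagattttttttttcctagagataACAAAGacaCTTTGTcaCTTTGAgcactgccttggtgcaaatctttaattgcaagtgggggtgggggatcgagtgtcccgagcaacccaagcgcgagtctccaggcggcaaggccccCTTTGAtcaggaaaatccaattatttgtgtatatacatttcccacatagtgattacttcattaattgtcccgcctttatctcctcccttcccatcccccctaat

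Windows of 300 bases, which run on to 50 bases after the start, were searched on both strands for 5 of the 7 members. The 7-letter core CTTTGAT, of which CTTTGA is the first part, was in none of those of Wnt6, Axin2, Ctnnb1, Tcf7l1 and Gsk3b, and in 3.73% of 32851 RefSeq promoters. Sp5 held it. Tcf7l1 held CTTTGT, found in 18.7% of promoters, and Gsk3b held CTTTGA, found in 5257 of them, while Wnt6 and Axin2 held none of the strings. The Wnt6 window was 76.7% G and C, more than in 97.3% of promoters. A match is only a run of letters, and no binding was measured here.

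Labelled Wnt6 RNA was also lower in Mettl3-KO at the start of the chase. At 0 h the WT library held 254 conversion counts among 672 Wnt6 counts, a labelled share of 37.8% (95% Wilson interval 34.2 to 41.5%), near the 39.4% of that whole library. The 2 Mettl3-KO libraries held 3 conversions among 64 counts, or 4.69% (1.61 to 12.9%), below the 26.1% and 26.6% of the whole libraries. The WT share then went to 28.4% at 1 h (23.3 to 34.1%), 15.2% at 3 h (12.0 to 19.0%) and 0.699% at 8 h (0.339 to 1.43%). The Mettl3-KO share was 24.6% at 1 h (14 of 57 counts, 15.2 to 37.1%), 6.25% at 3 h (2 of 32, 1.73 to 20.1%) and 5.13% at 8 h (2 of 39, 1.42 to 16.9%). WT thus showed an ordered decline, while the Mettl3-KO shares were highest at 1 h and rest on few counts. These intervals cover counting error only, since the reads carry no stated molecular identifiers. Shares and intervals also take each conversion count as 1 labelled read, which the sources used here do not state.

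The fitted slope of labelled Wnt6 RNA in WT was -0.68 log2 per hour (SE 0.13, edgeR adjusted p = 3.13e-06), a half-life of 1.47 h. In Mettl3-KO it was -0.22 (SE 0.15, edgeR adjusted p = 0.159), which did not pass the threshold, and its nominal half-life of 4.62 h rests on 21 conversion counts in all. The difference in slope, Mettl3-KO minus WT, was 0.46 (SE 0.24) and did not pass (edgeR adjusted p = 0.272). Wnt6 entered this test only through 3 WT libraries with at least 10 conversions, and no Mettl3-KO library reached that number. Leaving out any one of those 3 took the gene out of the test.

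Lrp6, the co-receptor (chromosome 6, 134446476 to 134566913), had overlapping levels in the genotypes. Deep WT libraries ranged from 66.3 to 80.2 CPM and deep Mettl3-KO libraries from 69.7 to 130.4. The highest Lrp6 values were the Mettl3-KO libraries at 0 h, at 130.4 and 97.9 CPM, against 71.9 in the WT library at 0 h. By 8 h the Mettl3-KO libraries were at 69.7 and 70.6 CPM and the WT ones at 74.8 and 66.3. The slope of total Lrp6 RNA in Mettl3-KO was -0.07 log2 per hour (SE 0.03, edgeR unadjusted p = 0.0475, adjusted p = 0.872), and its difference from WT did not pass (-0.07, SE 0.05, edgeR adjusted p = 1).

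Among the destruction complex genes, Gsk3b differed in level between genotypes and Apc and Axin2 overlapped. Gsk3b (chromosome 16, 38089001 to 38246084) encodes the kinase that phosphorylates beta-catenin. In deep WT libraries Gsk3b was at 148.1 CPM when the chase began, 213.0 after 1 h, 175.7 after 3 h, and 179.7 and 164.2 after 8 h. In deep Mettl3-KO libraries it was at 113.9 and 121.1 CPM when the chase began, 96.6 and 129.3 after 1 h, 94.7 after 3 h, and 105.5 and 106.6 after 8 h. All WT libraries lay above all Mettl3-KO libraries, and this held with the shallow libraries too (162.3 CPM in WT 1 h replicate 2 from 8 counts, 145.4 in Mettl3-KO 3 h replicate 2 from 52). The deep means were 176.1 CPM ± 24.0 (SD, n = 5) and 109.7 ± 12.6 (SD, n = 7), and the fitted log2 difference was -0.65 (SE 0.18), or -0.72 (SE 0.15) over deep libraries. Of all genes tested, 19.9% had a lower difference than Gsk3b, and 18.9% over deep libraries. A difference of this size was thus common between these lines. The share of all genes whose genotypes lie apart without overlap is not given here.

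Apc, the scaffold of the destruction complex, stood at 44.9 CPM ± 7.04 (SD, n = 5) in WT and 45.0 ± 10.0 (SD, n = 7) in Mettl3-KO, with a log2 difference of 0.00 (SE 0.24). Deep libraries spanned 36.3 to 54.5 CPM in WT and 32.3 to 58.8 in Mettl3-KO, so the genotypes covered the same range. Axin2 (chromosome 11, 108917828 to 108950783), both a complex scaffold and a readout of the pathway, was scarce in all libraries. It had 13 to 131 counts per deep library, with levels of 1.98 to 5.22 CPM in WT and 1.59 to 5.99 in Mettl3-KO. The log2 difference was -0.01 (SE 0.43), so the data do not separate no change from a change of that error's size.

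Ctnnb1 (chromosome 9, 120933400 to 120960507), which encodes beta-catenin, was the most abundant member in both genotypes. Deep WT libraries ranged from 642.8 to 873.9 CPM (median 834.8) and deep Mettl3-KO libraries from 524.0 to 718.7 (median 649.3), overlapping at WT 3 h. The log2 difference was -0.23 (SE 0.23), and -0.31 (SE 0.15) over deep libraries. In the shallow libraries Ctnnb1 stood at 263.8 CPM (13 counts) and 383.1 (137 counts), lower than in any deep library.

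Tcf7l1 (chromosome 6, 72626371 to 72789045), the TCF factor, was the member with the largest difference in the upward direction. Deep WT libraries were at 98.4 CPM when the chase began, 182.2 after 1 h, 146.3 after 3 h, and 102.5 and 124.6 after 8 h. Deep Mettl3-KO libraries were at 229.1 and 177.4 CPM when the chase began, 180.2 and 311.8 after 1 h, 252.7 after 3 h, and 177.8 and 219.8 after 8 h. The WT library at 1 h overlapped the lowest Mettl3-KO libraries, and at 0, 3 and 8 h the genotypes were apart among deep libraries. The log2 difference was 0.53 (SE 0.24) over 14 libraries and 0.75 (SE 0.17) over deep ones. Of all genes tested, 72.9% and 80.3% had a lower difference. WT 1 h replicate 2, at 365.3 CPM from 18 counts, was above all other libraries. The Tcf7l1 locus also holds the lncRNA Gm15401, which had 9 counts in WT and 1 in Mettl3-KO.

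Since 3′ end libraries sample transcript ends, the members' levels were also put in order. In WT the order of mean CPM was Ctnnb1, Gsk3b, Tcf7l1, Lrp6, Apc, Wnt6 and Axin2. In Mettl3-KO it was Ctnnb1, Tcf7l1, Gsk3b, Lrp6, Apc, Axin2 and Wnt6. Gsk3b and Tcf7l1 thus exchanged places, as did Wnt6 and Axin2. Ranges of Gsk3b and Tcf7l1 overlapped in WT (148.1 to 213.0 and 98.4 to 182.2 CPM), as did those of Apc and Wnt6 (36.3 to 54.5 and 35.6 to 47.7).

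Over the chase, total RNA of the 7 genes did not move differently in the genotypes by the test. The interaction of genotype and hours was between -0.15 (Wnt6, SE 0.10) and 0.09 (Axin2, SE 0.12) log2 per hour, and 0 of 7 passed (edgeR adjusted p = 1 for each). Of all 14641 genes 0 passed (0%), while 728 genes and 0 members had an unadjusted p under 0.05. By DESeq2, 201 genes were called, none of them a member. Over deep libraries edgeR called 80 genes (0.549%), again no member, with Wnt6 the one member at an unadjusted p under 0.05 (-0.14, SE 0.06, edgeR adjusted p = 0.296).

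All 7 members lost label in WT (7 of 7 called, against 91.4% of 12678 genes), and the 6 other than Wnt6 did in Mettl3-KO (88.2% of genes). Wnt6 passed the filter on conversions only through WT, where it is high, so its WT call carries no weight in this count. Its missing call in Mettl3-KO follows from the low level it was chosen for and says nothing of its loss there. The WT slopes, as half-lives, were 1.21 h for Gsk3b, 1.47 for Wnt6, 1.48 for Lrp6, 1.55 for Axin2, 1.63 for Apc, 1.85 for Tcf7l1 and 2.22 for Ctnnb1. The Mettl3-KO half-lives were 1.33 h for Lrp6, 1.53 for Axin2, 1.70 for Tcf7l1, 1.93 for Gsk3b, 1.99 for Apc and 2.50 for Ctnnb1. For all genes the median slope corresponded to 1.80 h (WT) and 2.12 h (Mettl3-KO). In these orders no 2 neighbouring slopes in WT lay more than 0.84 of their combined SE apart, and in Mettl3-KO the widest step was 1.07 combined SE, from Ctnnb1 to Wnt6. Half-lives here are not corrected for cell division.

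**Figure D2:**
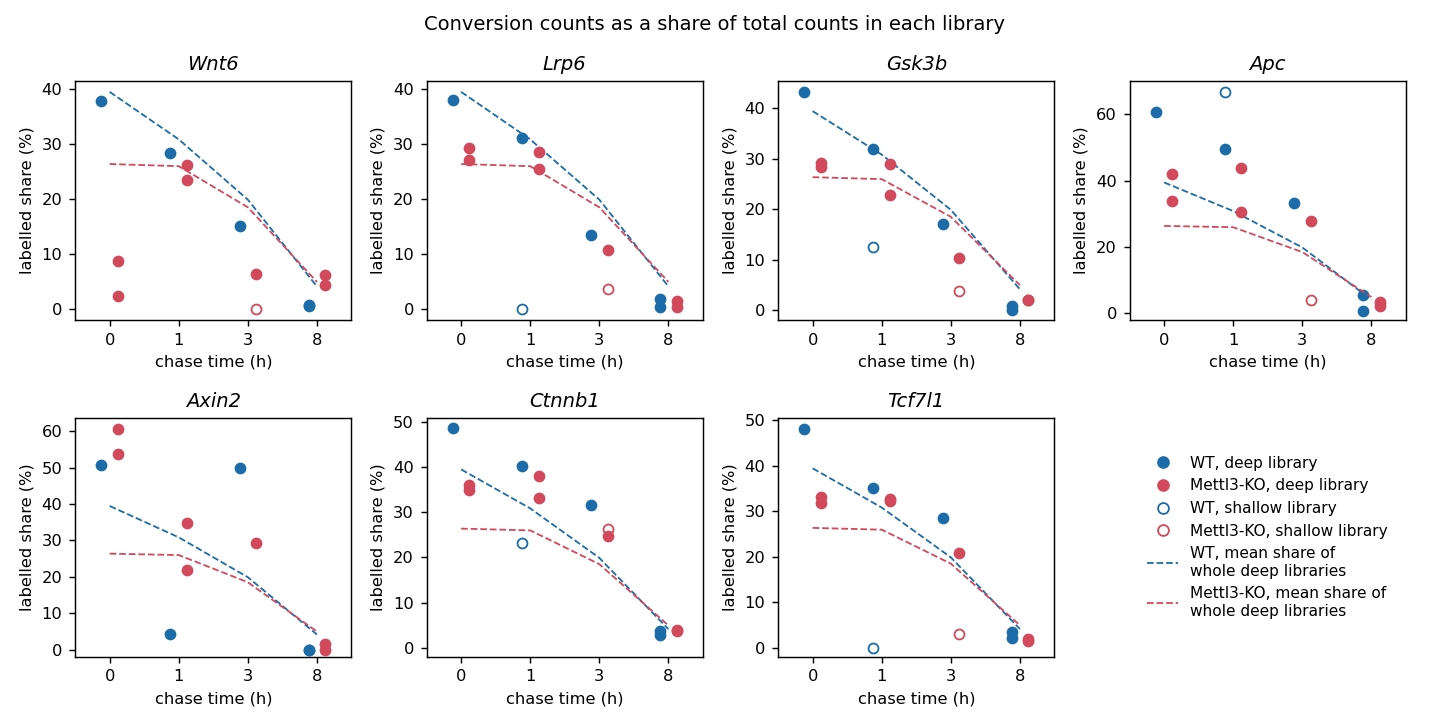
Conversion counts as a percent of the gene's total counts against chase time for the 7 genes; points are libraries (filled deep, open shallow) and dashed lines are the mean labelled share of whole deep libraries. Wnt6 in WT starts near the dashed line, at 37.8% at 0 h, and lies below it at 8 h, at 0.73% and 0.64% against library shares of 4.52% and 3.72%, while its 2 Mettl3-KO libraries at 0 h lie at 8.70% and 2.44%, below the dashed Mettl3-KO line.

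The labelled shares at the start differed between members. In the WT library at 0 h they were 60.5% for Apc, 50.6% for Axin2, 48.6% for Ctnnb1, 48.2% for Tcf7l1, 43.2% for Gsk3b, 38.0% for Lrp6 and 37.8% for Wnt6, around a library share of 39.4%. In the 2 Mettl3-KO libraries together they were 38.8% for Apc, 57.0% for Axin2, 35.4% for Ctnnb1, 32.5% for Tcf7l1, 28.7% for Gsk3b and 28.3% for Lrp6. Axin2 was the one member whose share at 0 h was not lower in Mettl3-KO, with intervals of 39.8 to 61.4% and 48.4 to 65.3% that overlap. Against total RNA of all genes, the fitted log2 difference in labelled RNA at 0 h was -6.16 (SE 0.78) for Wnt6, -1.53 (SE 0.50) for Gsk3b, -0.81 (SE 0.54) for Apc, -0.52 (SE 1.01) for Axin2, -0.49 (SE 0.47) for Ctnnb1, 0.08 (SE 0.52) for Lrp6 and 0.35 (SE 0.53) for Tcf7l1. The median over all genes was -0.35, so Wnt6 and Gsk3b lay lowest among the members on both measures, total and labelled RNA.

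Of the loss rates, that of Gsk3b differed most among the well-covered members, and no member's difference passed the threshold. Its labelled share went from 43.2% at 0 h to 31.8%, 17.0% and 0.576% (22 of 3817 counts) in WT, and from 28.7% to 26.1%, 10.1% and 1.99% (80 of 4017) in Mettl3-KO. WT was thus higher at 0, 1 and 3 h and lower at 8 h, and the whole deep libraries showed the same. Their labelled shares in WT were 39.4% at 0 h, 30.8% at 1 h, 19.9% at 3 h, and 4.52% and 3.72% at 8 h. In Mettl3-KO they were 26.1% and 26.6%, 25.2% and 26.7%, 18.5%, and 4.90% and 4.97%. The crossing of the shares is therefore not particular to Gsk3b. The slopes of labelled Gsk3b RNA were -0.82 (SE 0.11) in WT and -0.52 (SE 0.08) in Mettl3-KO, a difference of 0.31 log2 per hour (SE 0.12, edgeR unadjusted p = 0.0114, adjusted p = 0.13). Without the 8 h libraries the difference turned to -0.29 (edgeR adjusted p = 1), and without WT 8 h replicate 2, which held 0 conversions among 1078 Gsk3b counts (a share of up to 0.278% by 3 counts), it was 0.19 (edgeR adjusted p = 0.483). In the authors' deposited table of half-lives, which gives no unit, Gsk3b is listed at 1.107 in WT and 2.848 in Mettl3-KO.

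The share of labelled RNA over the chase followed a like course in the other well-covered members. For Ctnnb1 it was 48.6%, 40.2%, 31.6% and 3.47% at 0, 1, 3 and 8 h in WT, and 35.4%, 35.8%, 24.8% and 3.85% in Mettl3-KO. For Tcf7l1 it was 48.2%, 34.6%, 28.4% and 2.65% in WT, and 32.5%, 32.6%, 20.5% and 1.72% in Mettl3-KO. For Apc it was 60.5%, 49.7%, 33.2% and 1.95% in WT, and 38.8%, 38.1%, 27.2% and 3.13% in Mettl3-KO. In these 3 genes, as in the whole deep libraries, the WT share was already lower at 1 h, while the pooled Mettl3-KO shares at 0 and 1 h were close. By library they were 42.1% and 33.9% at 0 h and 30.4% and 43.8% at 1 h for Apc, 34.9% and 36.0% and then 33.1% and 38.1% for Ctnnb1, and 31.9% and 33.2% and then 32.3% and 32.8% for Tcf7l1. The replicates of Apc and Ctnnb1 at 1 h thus differed by more than the pooled shares of the 2 times. Whole deep WT libraries were at 39.4% at 0 h and 30.8% at 1 h. Whole Mettl3-KO libraries were at 26.1% and 26.6% at 0 h and 25.2% and 26.7% at 1 h. Lrp6 went from 38.0% to 31.0%, 13.4% and 0.825% in WT and from 28.3% to 26.9%, 10.6% and 0.639% in Mettl3-KO, the fastest fall in Mettl3-KO among these genes.

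Axin2 had no ordered course in WT, where its counts were few. Its share was 50.6% at 0 h (40 of 79 counts), 4.35% at 1 h (1 of 23), then 30 of 60 counts at 3 h and 0 of 91 at 8 h, which allows up to 3.30%. In Mettl3-KO it was 57.0% (73 of 128), 32.0% (47 of 147), 29.2% (26 of 89) and 0.503% (1 of 199), lower at each later time. The WT slope of -0.64 (SE 0.22, edgeR adjusted p = 0.00416) lost its call without WT 8 h replicate 1 (-0.41, edgeR adjusted p = 0.098), and without WT 3 h replicate 1 it was -1.20.

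The other members' fitted differences in loss rate were 0.11 (SE 0.13) for Apc, 0.05 (SE 0.11) for Ctnnb1, -0.01 for Axin2, -0.05 (SE 0.12) for Tcf7l1 and -0.08 (SE 0.13) for Lrp6, with edgeR adjusted p from 0.698 to 0.992. That of Axin2 is poorly set: its slopes had SEs of 0.22 (WT) and 0.17 (Mettl3-KO), and the difference went from -0.24 without WT 8 h replicate 1 to 0.54 without WT 3 h replicate 1. Apc went from -0.03 without WT 8 h replicate 1 to 0.23 without WT 8 h replicate 2. Lrp6 went from -0.21 without Mettl3-KO 8 h replicate 1 to 0.02 without Mettl3-KO 8 h replicate 2. Tcf7l1 went from -0.14 without WT 8 h replicate 1 to 0.01 without WT 0 h replicate 1. The signs of the Axin2, Apc, Lrp6 and Tcf7l1 differences thus each turned on 1 library. So 0 of 7 members were called, against 2.6% of 12678 genes (304 slower in Mettl3-KO, 2.4%, and 26 faster, 0.205%), and 1 member had an unadjusted p under 0.05. Wnt6 carries no weight in this count. It passed the filter on conversions only through WT, and its level in Mettl3-KO is the low one it was chosen for. By DESeq2, 0 members were called. The median difference was 0.05 for the members and 0.10 for all genes. The standard errors were 0.11 to 0.24 log2 per hour. A difference larger than its SE was not called either, 0.31 for Gsk3b (SE 0.12). The missing calls therefore do not show that the loss rates were equal.

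**Figure D3:**
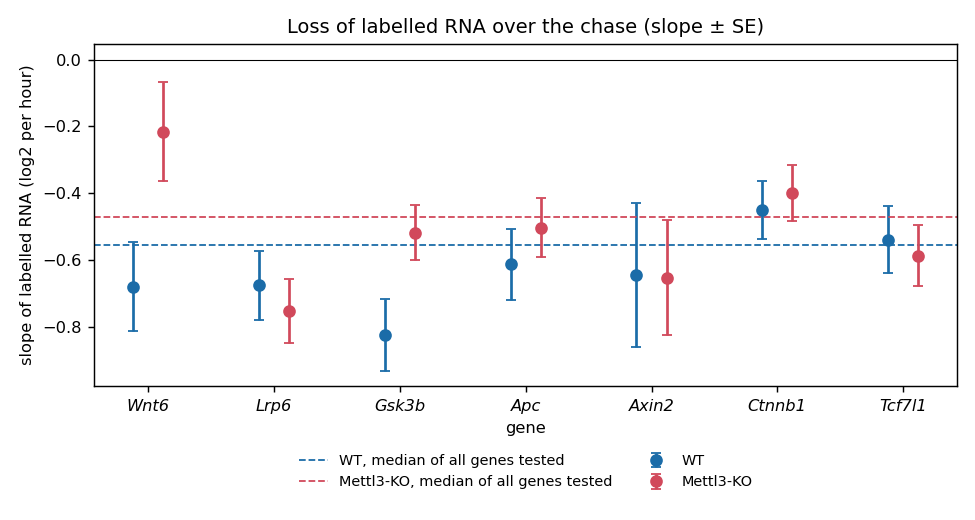
Slope of labelled RNA in log2 per hour for each of the 7 genes in WT (blue) and Mettl3-KO (red), with bars of 1 SE; dashed lines are the medians of all 12678 genes. Slopes lie between -0.82 and -0.22, all below 0, and the bars of the genotypes overlap for Lrp6, Apc, Axin2, Ctnnb1 and Tcf7l1 but not for Wnt6 and Gsk3b.

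In the authors' deposited table Ctnnb1 is listed at 2.062 in WT and 4.715 in Mettl3-KO, Apc at 1.789 and 2.328, Tcf7l1 at 2.148 and 2.544, and Lrp6 at 1.529 and 1.573. The medians of its 6985 genes are 1.695 and 2.518. The order in WT resembles that of the fitted half-lives, with Gsk3b lowest and Tcf7l1 and Ctnnb1 highest. For Ctnnb1 the 2 sources are furthest apart, since the slopes fitted here gave 2.22 h and 2.50 h, though the table names no unit.

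The rest of the pathway was followed in 101 other Wnt genes in 7 lists by role, of which 78 had enough counts. Of these, 17 rose and 10 fell in Mettl3-KO, or 34.6% called against 22.1% of 14641 genes (12.1% above 0 and 9.99% below). Their median log2 difference was 0.21, against 0.05 for all genes. Over deep libraries 28 rose and 16 fell, 57.1% called against 41.2% of all genes (21.9% above 0 and 19.3% below). Both directions occurred in every list over deep libraries, and over 14 libraries in every list but the ligands. The lists were chosen with earlier results of these data known. The shares called, here and for each list below, are therefore descriptions and no independent test.

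Of 18 other Wnt ligand genes 7 were tested, and 0 rose and 2 fell over 14 libraries, while over deep libraries 1 of 6 rose and 2 fell. These are 28.6% and 50% called, against 22.1% and 41.2% of all genes. Wnt10a is given above, and Wnt7b went from 7.90 CPM ± 1.80 (SD, n = 5) to 3.25 ± 1.61 (SD, n = 7), a fall of 1.30 on the log2 scale (SE 0.34, edgeR adjusted p = 0.0129). Wnt5a, a mostly noncanonical ligand, was at a log2 difference of -0.07 (SE 0.35, edgeR adjusted p = 0.919). Wnt5b was the ligand that rose over deep libraries, from 0.93 CPM ± 0.68 (SD, n = 5) to 2.10 ± 1.11 (SD, n = 7) (log2 1.51, SE 0.53, edgeR adjusted p = 0.0303), with ranges that overlap, and it did not pass over 14 libraries (edgeR adjusted p = 0.053). Wnt11 and Wnt3a had too few counts to be tested: Wnt11 had 93 counts in deep WT and 1 in deep Mettl3-KO libraries, and Wnt3a had 89 and 23. Wnt11 and Wnt3a were named after their values were seen. Wnt3 was at a log2 difference of 2.14 (SE 1.06, edgeR adjusted p = 0.17). The median over the 7 tested ligands was -0.07, with 3 above 0, and over deep libraries 0.06, with 3 of 6 above 0. Wnt6 was thus not alone among ligands in being lower, but the tested ligands were not lower as a set.

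Wls, the carrier that takes Wnt proteins to the cell surface, fell by 1.63 (SE 0.39, edgeR adjusted p = 0.00911), with deep libraries at 17.0 to 29.2 CPM in WT and 3.17 to 7.70 in Mettl3-KO. Of the R-spondins, secreted proteins that raise Wnt receptor levels, Rspo1, Rspo2 and Rspo4 rose and Rspo3 was at a log2 difference of -0.16 (SE 1.02, edgeR adjusted p = 0.943). Rspo1 rose from 2.09 CPM ± 0.92 (SD, n = 5) to 7.01 ± 0.80 (SD, n = 7) (log2 1.77, SE 0.39, edgeR adjusted p = 0.00549). Rspo2 rose too (edgeR adjusted p = 0.00434): it had 0 counts in all WT libraries and 127 in Mettl3-KO, which is at least 18.2-fold higher if 3 counts over the WT group are taken as the floor. In this list of secretion and R-spondin genes 3 of 9 tested rose and 1 fell, or 44.4%, against 22.1% of all genes.

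Of 17 receptor and Dishevelled genes 4 rose and 1 fell, or 29.4%, against 22.1% of all genes. Ror1, a noncanonical co-receptor, rose from 0.18 CPM ± 0.29 (SD, n = 5) to 4.73 ± 1.60 (SD, n = 7) (log2 4.69, SE 0.67, edgeR adjusted p = 0.000286). Among Frizzled receptors Fzd8 rose (log2 2.21, SE 0.49, edgeR adjusted p = 0.00549) and Fzd10 fell by 1.80 (SE 0.30, edgeR adjusted p = 0.000934). Deep libraries did not overlap for Ror1, Fzd8 or Fzd10 taken one by one. Ryk, with the highest mean CPM of the list over 14 libraries (over deep ones Dvl2 was higher, at 153.5 CPM in WT and 138.9 in Mettl3-KO against 103.2 and 125.5 for Ryk), had label half-lives of 2.08 h (WT) and 2.42 h (Mettl3-KO), a difference that did not pass (edgeR adjusted p = 0.81).

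Of 15 secreted antagonists and their receptors 9 were tested, 3 rose and 2 fell, or 55.6%, against 22.1% of all genes. Sfrp2, which binds Wnt proteins outside the cell, rose from 2.60 CPM ± 1.40 (SD, n = 5) to 16.9 (13.6 to 21.9, n = 7) (log2 2.67, SE 0.29, edgeR adjusted p = 3.54e-05). Sfrp4 rose from 4 counts over all WT libraries to 434 in Mettl3-KO (log2 5.47, SE 0.72, edgeR adjusted p = 0.000157). Kremen2, a Dickkopf receptor, fell by 2.12 (SE 0.48, edgeR adjusted p = 0.00633). Sfrp1, the most abundant gene of the list, was at 282.7 to 470.8 CPM in deep WT and 123.2 to 185.7 in deep Mettl3-KO libraries, and fell by 1.00 (SE 0.31, edgeR adjusted p = 0.0329).

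Of 12 tested genes of beta-catenin destruction and turnover 1 rose and 1 fell, or 16.7%, against 22.1% of all genes. Over deep libraries 2 of them rose and 4 fell, or 50%, against 41.2% of all genes. Ctnnbip1, an inhibitor of the binding of beta-catenin to TCF factors, rose from 50.3 CPM ± 9.89 (SD, n = 5) to 129.8 ± 27.6 (SD, n = 7) (log2 1.36, SE 0.21, edgeR adjusted p = 0.000527). Amer1, a membrane scaffold for Apc, fell by 1.45 (SE 0.32, edgeR adjusted p = 0.0056).

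Of 13 TCF/LEF factors and co-factors 2 rose and 1 fell, or 23.1%, near the 22.1% of all genes. Over deep libraries 38.5% were called, against 41.2% of all genes. Lef1, an activating TCF/LEF factor, rose from 0.48 CPM ± 0.48 (SD, n = 5) to 11.3 ± 7.15 (SD, n = 7) (log2 4.87, SE 0.98, edgeR adjusted p = 0.00448). In Mettl3-KO it was at 7.83 and 7.66 CPM when the chase began, 9.13 and 7.25 after 1 h, 4.54 after 3 h, and 18.9 and 23.8 after 8 h, so the 8 h libraries were highest among deep ones. In the shallow Mettl3-KO 3 h replicate 2 it was at 81.1 CPM from 29 counts. In deep WT libraries Lef1 was at 1.01 CPM at 0 h (19 counts) and 0.993 at 1 h (7 counts). It was at 0.174 CPM at 3 h (2 counts), and at 0.0656 and 0.152 at 8 h (1 count each). Over the chase the Lef1 difference did not pass with all libraries (0.62 log2 per hour, SE 0.24, edgeR adjusted p = 0.989), and did with the deep ones (0.65, SE 0.13, edgeR adjusted p = 0.0273). That difference includes the WT fall, which rests on these few counts. Tcf7l2, a relative of Tcf7l1, fell by 1.00 (SE 0.31, edgeR adjusted p = 0.0307), and Chd8, a chromatin remodeller that binds beta-catenin, rose by 0.72 (SE 0.21, edgeR adjusted p = 0.0264).

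Of 14 genes known as Wnt targets 11 were tested, 4 rose and 2 fell, or 54.5%, against 22.1% of all genes. Axin2 overlapped between genotypes. Sp5, the direct target whose promoter is shown above, rose from 20.1 CPM ± 4.39 (SD, n = 5) to 59.7 ± 10.1 (SD, n = 7) (log2 1.76, SE 0.28, edgeR adjusted p = 0.000602), and its deep libraries did not overlap. Zcchc12 had 0 counts in all WT libraries and 203 in Mettl3-KO, at least 29.1-fold higher by the same floor (edgeR adjusted p = 0.000771). Cdx1, a homeobox target of the pathway, fell from 42.0 CPM ± 8.66 (SD, n = 5) to 4.58 ± 2.19 (SD, n = 7) (log2 -2.98, SE 0.41, edgeR adjusted p = 0.000209). The targets thus did not move in 1 direction. Ccnd1, the one with the highest mean CPM over 14 libraries, had label half-lives of 1.77 h (WT) and 1.78 h (Mettl3-KO).

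**Figure D4:**
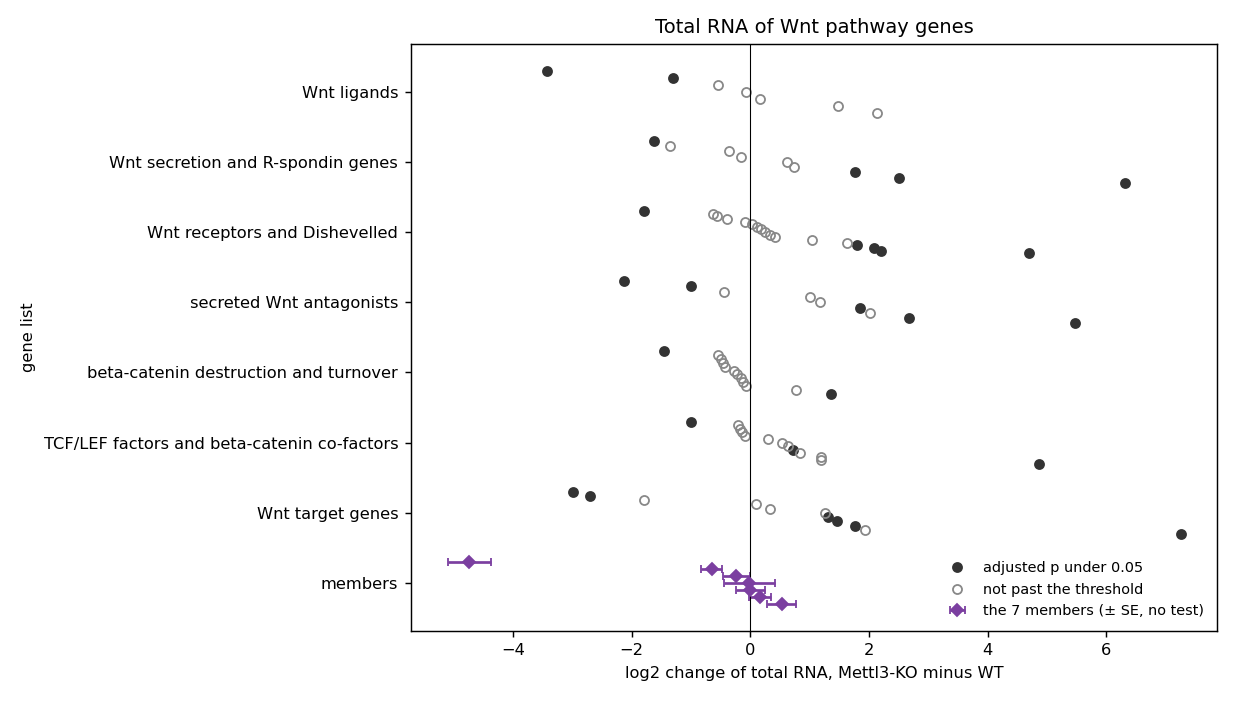
Log2 difference of total RNA, Mettl3-KO minus WT, for the tested genes of the 7 lists (circles, filled where the edgeR adjusted p was under 0.05) and for the 7 members (diamonds with bars of 1 SE, no test). In this fit of 14 libraries calls lie on both sides of 0 in all lists but the ligands, and Wnt6 at -4.74 is lower than all 78 other Wnt genes, the lowest of which is Wnt10a at -3.42; points of genes with 0 WT counts (Rspo2, Zcchc12) depend on the fit.

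Of 5 genes described as repressed by Tcf7l1 in embryonic stem cells, 1 rose and 2 fell, or 60%, against 22.1% of all genes. These 5 genes were named after their values were seen, so this share is a description and not a test. Tfcp2l1 fell by 2.71 (SE 0.25, edgeR adjusted p = 1.21e-05) and Esrrb by 0.90 (SE 0.27, edgeR adjusted p = 0.0278), while Klf2 rose by 0.93 (SE 0.29, edgeR adjusted p = 0.0328). All 5 lost label in both genotypes, as did 91.4% of all genes in WT and 88.2% in Mettl3-KO. In loss rate 0 of 5 differed (1 at an unadjusted p under 0.05), against 2.6% of all genes.

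Among the other Wnt genes over the chase, 1 (Lef1) passed with the deep libraries, as given above. With 14 libraries 0 of 78 passed in edgeR (2 at an unadjusted p under 0.05) and 0 in DESeq2. In loss rate 0 of 67 passed in edgeR (7 at an unadjusted p under 0.05), against 2.6% of all genes, and 0 passed in DESeq2. Loss of label was called for 58 of 67 in WT and for 58 of 67 in Mettl3-KO, or 86.6% each, near the shares of all genes. The called genes were not all the same. Wnt7b and Lef1, for example, were called only in WT, and Rspo2 and Ror1 only in Mettl3-KO. The genes with the highest mean CPM over 14 libraries in 6 of the lists had loss rate differences of 0.16 (Sfrp1, SE 0.11), 0.07 (Ryk, SE 0.11), -0.01 (Csnk1a1, SE 0.11), -0.04 (Porcn, SE 0.11), -0.04 (Chd8, SE 0.10) and 0.00 (Ccnd1, SE 0.11).

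Markers of other cell types moved with the genotype. The 17 endoderm markers summed to 932 to 1760 CPM in deep WT and 553 to 718 in deep Mettl3-KO libraries, with Afp at 0 in WT and Ttr and Afp at 0 in Mettl3-KO, and of 13 tested 7 fell and 1 rose. Without Sparc, the sums were 257 to 318 and 102 to 155. The 6 neural markers with enough counts to be tested summed to 78.8 to 101 CPM in WT and 467 to 747 in Mettl3-KO, none at 0, and 3 rose and 1 fell. The 13 mesoderm and trophoblast markers, 2 of which (T and Cdx2) are also on the list of Wnt targets, summed to 59.7 to 73.5 and 110 to 134, with Elf5 at 0 in both. Of 8 of these tested 2 rose (Kdr and Tfap2c) and 1 fell (T), with a median log2 difference of -0.17, and over deep libraries 2 rose and 3 fell. The 11 fibroblast markers summed to 464 to 514 and 412 to 636, which overlap, and of 7 tested 1 rose and 1 fell. Called over 14 libraries were 61.5% of tested endoderm, 66.7% of neural, 37.5% of mesoderm and trophoblast and 28.6% of fibroblast markers. The share of all genes was 22.1%. The marker genes were named after their values were seen, so these shares are descriptions. The part of these markers' cells in the differences of Wnt6 and the other Wnt genes was not tested.

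Across the 12 deep libraries, the genes whose log2 CPM ran most like Wnt6 were Sned1 (Pearson r = 0.995), B4galt6 (0.995), Islr2 (0.993), Laptm5 (0.993) and Itpr3 (0.992), out of 14641. All 5 were lower in Mettl3-KO, from 47.5 to 1.92 CPM for Sned1 and from 477.4 to 31.8 for Laptm5, so these values follow the genotype difference they share. Among members r with Wnt6 was 0.917 for Gsk3b, 0.656 for Ctnnb1, 0.01 for Apc, -0.108 for Axin2, -0.403 for Lrp6 and -0.781 for Tcf7l1. For Axin2 the closest were Rab28 (0.939), Myrf (0.921) and Ppp1r35 (0.919), none of which is a Wnt gene of the lists. These are descriptions over libraries that share depth and genotype.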

How the data were processed

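Total and T>C conversion counts were measured in 14 libraries of 8 groups of genotype and chase time, taken from the sample titles. Iodoacetamide (10 mM) made incorporated S4U read as C, and 100 ng of RNA per sample went into 3′ end libraries, per the labels' protocols. The authors deposited both tables as whole-number counts per gene. A table of log2 values, normalized by the authors, was not used for any value here. A deposited table of other values, half-lives with correlations and differences (score), was made by the authors and carries no unit. Tools in the submitters' processing notes are edgeR 3.32.1, Subread 1.5.0 with featureCounts, and Trim Galore 0.4.0, with build mm10. The aligner, strand setting and conversion caller, and what 1 conversion count stands for (a read or a base), are items not given in the sources used here.

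Tests were edgeR 4.0.16 quasi-likelihood F tests in R 4.3.3 with robust dispersion, on TMM-scaled counts, with Benjamini-Hochberg adjustment over all genes tested and a threshold of 0.05. For total RNA, a gene needed 10 counts or more in 6 or more libraries, and genotype was fitted beside chase time as a factor. The chase was tested as the interaction of genotype and hours. Conversion counts, for genes with 10 or more in 3 or more libraries, were scaled by the TMM-scaled total of their library, with genotype, hours and interaction. Half-lives are the inverse of the slope, and SE is the log2 effect over the square root of F, which is unsure for effects near 0. All 14 libraries shared each fit, so the lone WT libraries at 0 h and 3 h are assumed to vary like the others. The labels do not say whether replicates were separate cultures, so p-values measure only how far these samples spread, which may be technical. CPM uses TMM-scaled totals. The 1 entry without a name, with 0.00707% to 0.0312% of a library's counts, was left out. The tests were checked on simulated counts. Alternatives were DESeq2 1.42.0, no count filter, deep libraries only, each library left out, a replicate block, other scales for label, and no 8 h libraries.

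The members and lists were chosen with earlier results of these data known. Named genes are the members, up to 3 genes per list and comparison with the smallest p past the threshold (the most abundant where none passed), and the 5 genes most correlated with Wnt6 and 3 with Axin2. Ttll4, Wnt3, Wnt3a, Wnt5a, Wnt5b, Wnt11, Rspo3, Rspo4, Dvl2, the Tcf7l1-repressed genes, the marker genes, Uty, and Sfrp1 and Lef1 in further comparisons were named after their values were seen. One item of the neural marker list is not reported here. Positions and promoters are from RefSeq on GRCm38.p6.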

Additional observations from a re-analysis of the deposited data

Results flagged for a closer look

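Of 14 sets of libraries (7 genes in WT and in Mettl3-KO), 3 held a library far from the others by Dixon's criterion at 95%, which chance gives in about 1 in 20 sets. Wnt6 in WT 1 h replicate 2 was at 0 CPM (0 counts), where the other 5 WT libraries were between 35.6 and 47.7 CPM. Tcf7l1 in the same library was at 365.3 CPM from 18 counts, above the 98.4 to 182.2 CPM of the others. Both come from the shallowest library, with 49154 counts. Lrp6 in Mettl3-KO 0 h replicate 1 was at 130.4 CPM from 2181 counts, where the other 7 Mettl3-KO libraries were at 97.9 CPM or lower.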

How the results depend on the processing

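No member's loss rate difference or change over the chase was called under any alternative run. Without the shallow libraries, calls for total RNA went from 3231 to 6001 (other Wnt genes 28 above and 16 below), over the chase from 0 to 80 (other Wnt genes 1, Lef1) and for loss rate from 330 to 678. DESeq2 called 201 genes over the chase and 624 for loss rate, and without a count filter 2070 were called for total RNA. Scaling conversions by their own TMM takes out the loss of label common to a library by construction. It left 919 genes called in WT (1 member, 2 other Wnt genes below) and 2697 in Mettl3-KO (1 member, 7 other Wnt genes below, 2 above), and the slope of Ctnnb1 turned to 0.0599 in WT and 0.0297 in Mettl3-KO. Without the 8 h libraries 791 genes were called in WT (0 members, 5 other Wnt genes below), 265 in Mettl3-KO (1 member, 2 other Wnt genes below, 1 above) and 26 for loss rate, and the WT slope of Axin2 turned to 0.21. This leaves fewer libraries over a shorter span, and a lost call there does not show that a slope went: Gsk3b in Mettl3-KO went from -0.52 to -0.65 (SE 0.23, edgeR adjusted p = 0.0953). The cause of the other shifts was not tested. Leaving out 1 library gave 2236 to 5281 calls for total RNA (highest without Mettl3-KO 3 h replicate 2), 11 to 27 above and 5 to 15 below among other Wnt genes, 0 to 17 over the chase (0 to 1 among other Wnt genes) and 68 to 557 for loss rate (lowest without WT 8 h replicate 2). Axin2 in WT was not called without WT 8 h replicate 1.

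With a replicate block 3106 genes were called for total RNA (other Wnt genes 19 above and 10 below), 275 for loss rate and 0 over the chase, and no member's call changed. Libraries with the same number gave no clear sign of pairing. Over 15 pairs of groups the correlation of their deviations was between -0.08 and 0.27, with 2 over 0.1. The highest was between WT 1 h and Mettl3-KO 3 h, the groups with a shallow library. WT at 0 h and 3 h had 1 library and could not be checked, so pairing is not excluded. Axin2, at 13 to 131 counts per deep library, and Wnt6 in Mettl3-KO, with 21 conversions, are limited by depth.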
